A study of Mus musculus with 8 samples.

Results

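The 27 genes described here encode enzymes of cholesterol synthesis, the proteins that sense sterols and control those enzymes, and proteins that take up, move and store cholesterol. They were chosen by name from a fixed list of mevalonate and sterol steps, control of the transcription factor SREBP2, and sterol uptake. All 27 were found, each once, among the 34745 genes of the count tables. The libraries were RNA sequencing libraries of crypts from wild-type (WT) C57BL/6 mice at day 5. The DSS group had 4 libraries from mice given dextran sulfate sodium, a sulfated polymer that damages the epithelium and produces an experimental colitis. The DSS+CA group had 4 libraries from mice given DSS and CA, which the series title spells out as cholic acid, a primary bile acid. Both groups thus carried DSS, and no library without DSS was analysed here. The labels do not give the gut segment, the animals' age, the dose or route of either agent, or whether each library is a separate animal, so the p-values measure only the spread between these libraries, which may be technical.

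Cells make cholesterol from acetyl-CoA through mevalonate, isoprenoid diphosphates, squalene and lanosterol. When sterols are scarce in the endoplasmic reticulum, the escort protein Scap carries SREBP2 to the Golgi, where it is cut into an active factor that turns on the genes of this route. When sterols are plentiful, the Insig proteins hold Scap and SREBP2 back. In the small intestine, bile acids dissolve dietary and biliary cholesterol in micelles, Npc1l1 at the brush border takes it up, and Soat2 esterifies it for export in chylomicrons.

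Total counts per library lay between 13334012 and 17973196. Levels in CPM are counts scaled to the library's total over the genes that passed the expression filter, with edgeR's TMM correction for composition. Of colon markers, Car1 had 0 counts in each library, which allows up to 3. Hoxb13 had at most 1 count in any library. Aqp8 was low, at 2.80 to 4.27 CPM in DSS and 0 to 0.506 CPM in DSS+CA. Aqp8 lay below the filter and was not tested. Of small intestine markers, Fabp6 ranged from 380 to 1234 CPM in DSS and from 444 to 2181 CPM in DSS+CA. Slc10a2 ranged from 6.62 to 38.7 CPM in DSS and from 9.24 to 35.2 CPM in DSS+CA. Enterocyte genes were highly expressed, with a summed level of Apoa4, Apoa1, Sis, Fabp1, Fabp2, Alpi and Lct between 22076 and 99094 CPM in DSS and between 25916 and 111560 CPM in DSS+CA. The crypt base marker Lgr5 lay below the expression filter, and Olfm4, another crypt base marker, ranged from 292 to 1361 CPM in DSS and from 159 to 506 CPM in DSS+CA. In 3 libraries, DSS 2, DSS 3 and DSS+CA 3, counts fell on shorter genes, with a mean of 1423, 1448 and 1445 bases per counted gene, against 1719 to 2412 bases in the other 5. The results below are given with and without these 3 libraries where that changes a call. The fit without them, of 2 DSS against 3 DSS+CA libraries, called 6.61% of all genes tested.

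The regulatory windows of the genes are shown first, because SREBP2 acts together with the factor NF-Y, which binds CCAAT boxes, and with the factor Sp1, which binds GC boxes. RefSeq promoter windows on GRCm38.p6 were matched by symbol for 21 of the 27 genes, and the 250 bases upstream of each start site were searched on both strands. Capitals mark CCAAT boxes (CCAAT, or ATTGG on the other strand) and, in Hmgcs1, the match to the sterol regulatory element TCACNCCAC. The sequences are those of Hmgcs1, the one gene with that match, of Mvk, which had the most CCAAT boxes, and of Npc1l1, the gene with the largest difference between the groups.
Hmgcs1 (chr13:119690101-119690350, plus strand): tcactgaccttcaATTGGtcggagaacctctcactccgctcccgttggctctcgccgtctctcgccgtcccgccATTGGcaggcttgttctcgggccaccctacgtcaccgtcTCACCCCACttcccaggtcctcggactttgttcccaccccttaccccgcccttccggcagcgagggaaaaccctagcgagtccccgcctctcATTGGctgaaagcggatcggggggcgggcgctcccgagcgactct
Mvk (chr5:114444019-114444268, plus strand): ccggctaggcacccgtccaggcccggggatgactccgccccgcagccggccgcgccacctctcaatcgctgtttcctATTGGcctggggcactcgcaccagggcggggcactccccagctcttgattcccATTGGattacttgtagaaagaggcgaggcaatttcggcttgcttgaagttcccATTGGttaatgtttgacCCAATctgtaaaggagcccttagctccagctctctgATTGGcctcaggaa
Npc1l1 (chr11:6230246-6230495, minus strand): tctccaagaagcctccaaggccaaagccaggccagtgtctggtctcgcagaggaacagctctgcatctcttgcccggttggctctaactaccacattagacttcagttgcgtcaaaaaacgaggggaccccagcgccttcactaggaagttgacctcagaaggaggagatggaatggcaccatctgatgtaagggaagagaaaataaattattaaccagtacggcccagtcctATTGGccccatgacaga
The Hmgcs1 window held 3 CCAAT boxes, 2 GC boxes (GGGCGG) and the sterol regulatory element, which began 137 bases upstream of the start site. The Mvk window held 5 CCAAT boxes and 2 GC boxes. The Npc1l1 window held 1 CCAAT box and 0 GC boxes.

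CCAAT occurred in the windows of 20 of the 21 genes, against 37.5% of 27025 genes with a window. GGGCGG occurred in 18 of the 21, against 35.4% of genes. The sterol regulatory element in the form TCACNCCAC occurred in 1 of 21, against 1.22% of genes, and the E-box CACGTG in 5 of 21 (Hsd17b7, Sc5d, Dhcr7, Scap and Insig1), against 6.86%. The 27025 genes were not matched to the 21 in gene type, expression or GC content of the window, so these shares compare unlike sets. The CCAAT box may overlap other motifs, and a match describes the letters of a window only. Genes with more than 1 RefSeq start site were counted once if any of their windows held the motif. Promoter windows of Fdps, Fdft1, Sqle, Npc1, Stard4 and Soat2 were not analysed here.

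Levels were compared between genes as FPKM, the authors' deposited counts scaled to gene length and library total. In DSS, Npc1l1 stood highest at 126 ± 92.6 FPKM (SD, n = 4), followed by Soat2 at 72.5 ± 26.0, Hmgcs1 at 41.5 ± 20.2, Stard4 at 29.4 ± 12 and Sc5d at 23.3 ± 9.52 FPKM. In DSS+CA, Soat2 stood highest at 79.3 ± 27.1 FPKM, with Npc1l1 at 49.6 ± 23.4 and Hmgcs1 at 45.1 ± 5.77 FPKM. The gap from Soat2 to Hmgcs1 in DSS and that from Soat2 to Npc1l1 in DSS+CA exceeded either gene's SD, whereas the other neighbours named here lay within the larger SD. The lowest levels in DSS were those of Lss, at 0.84 ± 0.57 FPKM in DSS and 1.35 ± 0.56 FPKM in DSS+CA, and of Mylip, at 1.58 ± 0.78 and 1.32 ± 0.67 FPKM. The gene length implied by the Lss values was 18461 bases, which lowers its FPKM. All 27 genes reached 1 FPKM in at least 4 of 8 libraries and were tested, with 35 to 14863 counts per gene and library.

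**Figure D1:**
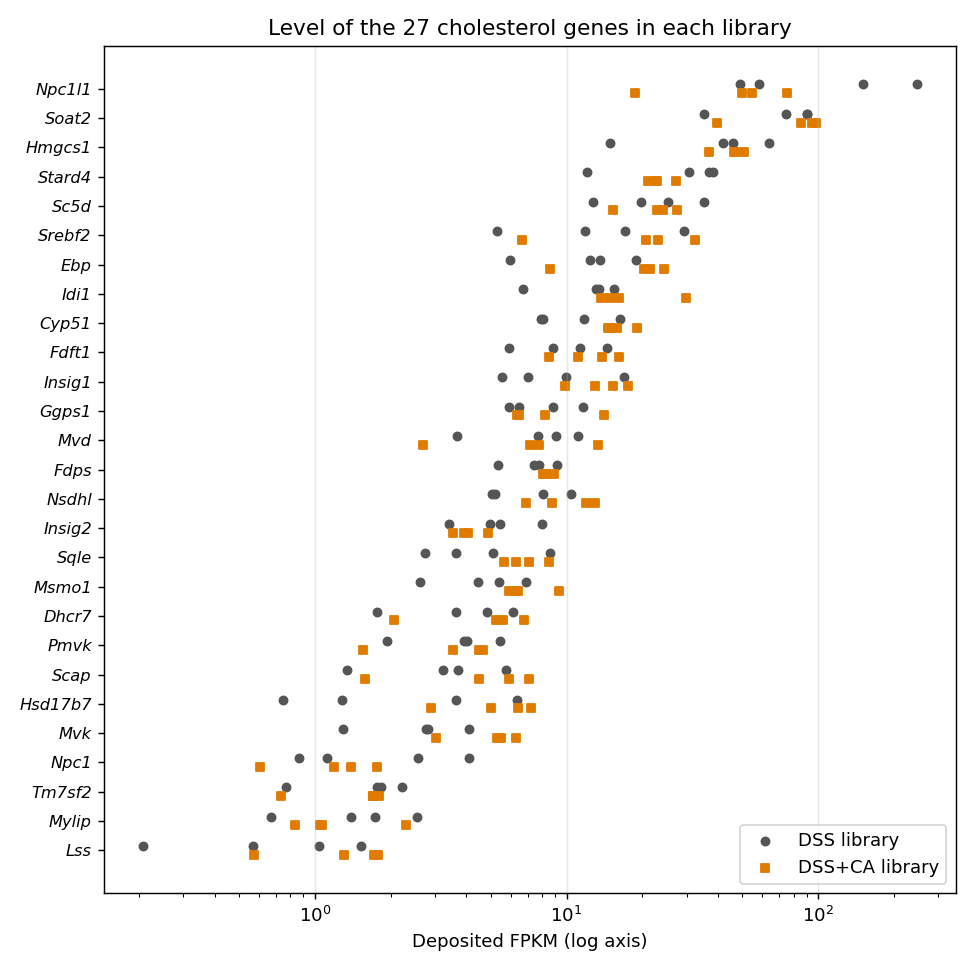
Deposited FPKM (log axis) of each of the 27 genes in each library, ordered by the DSS mean, with DSS libraries as grey circles and DSS+CA libraries as orange squares. Npc1l1, Soat2, Hmgcs1 and Stard4 stand highest in DSS and Lss lowest.

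Between the groups, the genes of cholesterol synthesis differed little relative to the spread between libraries, and the clearest difference was in uptake, where Npc1l1 was 2.81-fold lower in DSS+CA. With edgeR's quasi-likelihood test and Benjamini-Hochberg adjustment over the 9913 genes tested, 0 of the 27 genes passed an adjusted p of 0.05, as against 0.131% of all genes tested. At an unadjusted p below 0.05, 2 of the 27 were lower in DSS+CA (7.41%, against 4.85% of all genes) and 0 were higher (against 2.97%). DESeq2 called 1 of the 27, Npc1l1, against 2.22% of all genes. The log2 fold change of DSS+CA against DSS was above 0 for 16 of the 27 (59.3%, against 51.9% of all genes), and its median was 0.07, against 0.02 over all genes. The 95% intervals of 25 of the 27 log2 fold changes included 0.

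**Figure D2:**
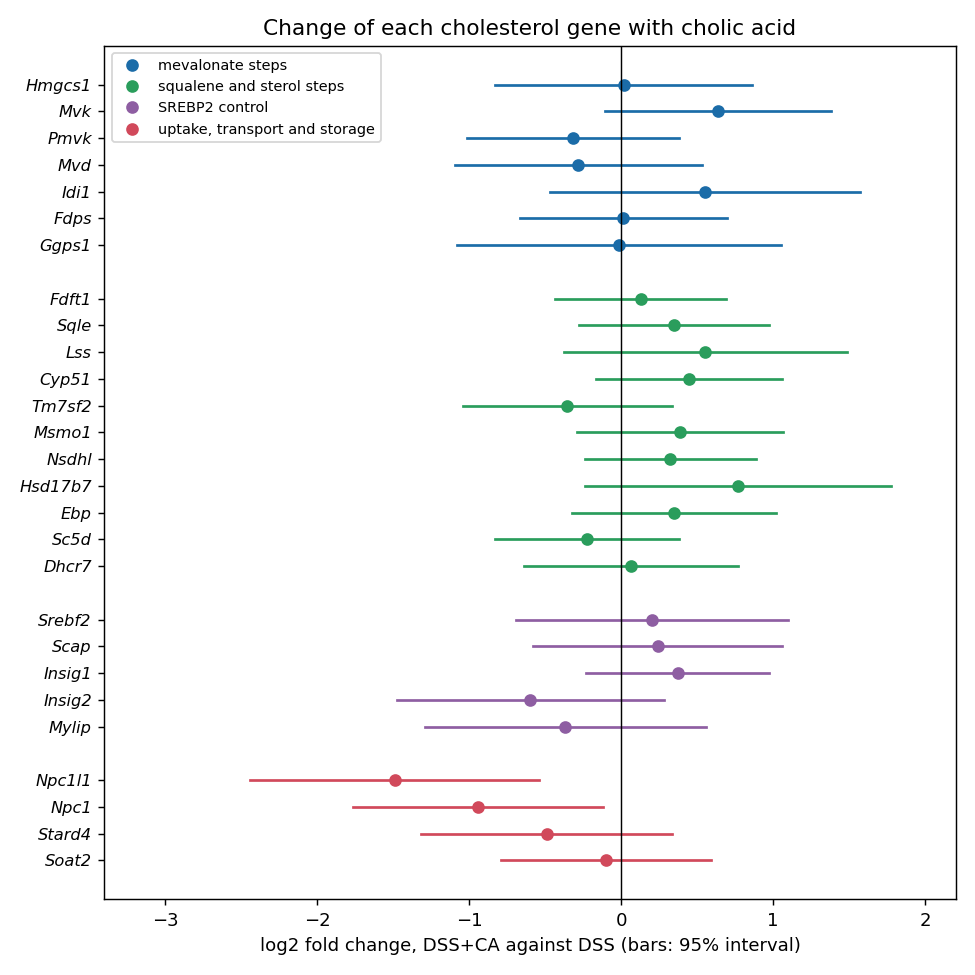
Log2 fold change of DSS+CA against DSS for each gene, with bars for the 95% interval, coloured by role. The intervals of Npc1l1 and Npc1 lie below 0 and the other 25 include 0.

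Of the 7 genes of the mevalonate and isoprenoid steps, 4 had log2 fold changes above 0 and 3 below, with a median of 0.02. Hmgcs1 encodes the cytosolic synthase that makes HMG-CoA. Its level was 170, 185, 58.3 and 148 CPM in DSS 1 to 4 and 116, 104, 205 and 142 CPM in DSS+CA 1 to 4. The groups overlapped throughout, and the log2 fold change was 0.02 with a 95% interval from -0.83 to 0.86. Its sign turned negative with another scaling (-0.020, RLE).

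Mvk encodes mevalonate kinase, which adds the first phosphate to mevalonate. It stood at 10.7, 8.39, 23.4 and 13.3 CPM in DSS 1 to 4 and at 23.0, 22.5, 19.4 and 21.7 CPM in DSS+CA 1 to 4. Every DSS+CA library was above DSS 1, DSS 2 and DSS 4, whereas DSS 3 was the highest of all 8. The log2 fold change was 0.64 (SE 0.34, edgeR adjusted p = 0.739). Without DSS 2, DSS 3 and DSS+CA 3 it was 0.87 with an edgeR adjusted p of 0.0409. That fit, of 2 DSS against 3 DSS+CA libraries, called 6.61% of all genes and 3 of the 27. For Mvk it left out the highest and the lowest DSS library and the lowest DSS+CA library.

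Idi1, the isomerase that interconverts the isoprene diphosphates, was at 53.3, 102, 39.1 and 63.0 CPM in DSS 1 to 4. In DSS+CA it was at 51.3, 67.3, 196 and 62.2 CPM. The value of DSS+CA 3 stood apart from all others, and the log2 fold change of 0.55 became -0.09 without that library. Ggps1, which makes geranylgeranyl diphosphate for protein prenylation, showed the same library apart, at 45.5 CPM against 11.9 to 16.8 in the other DSS+CA libraries. It was also highest in DSS 2 among the DSS libraries (37.7 CPM against 12.6 to 20.9), and its log2 fold change was -0.02.

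Fdps, the farnesyl diphosphate synthase, was at 36.5, 41.7, 63.4 and 42.3 CPM in DSS 1 to 4 and at 35.9, 41.1, 69.1 and 39.8 CPM in DSS+CA 1 to 4. The groups covered almost the same range, with replicate 3 the highest of each, and the log2 fold change was 0.02 with an interval from -0.67 to 0.70. Pmvk and Mvd encode the kinase and the decarboxylase that follow Mvk. Pmvk had means of 12.5 ± 3.04 and 9.99 ± 2.55 CPM in DSS and DSS+CA, and Mvd had 14.5 ± 4.49 and 11.9 ± 4.85 CPM (SD, n = 4). Their log2 fold changes were -0.32 and -0.28, and both ranges overlapped between the groups.

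The 11 genes from squalene to cholesterol had a median log2 fold change of 0.35, with 9 above 0, 2 below and 0 past the threshold (edgeR, adjusted p from 0.804 upward; 0 at an unadjusted p below 0.05 by edgeR). Sqle encodes squalene epoxidase, a rate-limiting enzyme of the sterol branch. It was at 60.7, 32.2, 37.9 and 43.6 CPM in DSS 1 to 4 and at 56.5, 46.6, 66.0 and 52.5 CPM in DSS+CA 1 to 4. The DSS+CA libraries were all above DSS 2 to 4 but not all above DSS 1, and the log2 fold change was 0.35 (interval from -0.28 to 0.97). It turned to -0.04 without DSS 2, DSS 3 and DSS+CA 3.

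Hsd17b7, which reduces the 3-keto sterol during removal of the C4 methyl groups, had the highest log2 fold change of the 27, at 0.77 (SE 0.460, edgeR adjusted p = 0.804). Its levels were 28.8, 5.64, 8.60 and 20.1 CPM in DSS 1 to 4 and 31.1, 24.0, 21.8 and 30.9 CPM in DSS+CA 1 to 4. DSS 2 and DSS 3 were low, whereas DSS 1 lay among the DSS+CA libraries. Leaving out DSS 1 gave 1.23 (adjusted p = 0.404), and leaving out DSS 2, DSS 3 and DSS+CA 3 gave 0.19.

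Lss, the cyclase that folds squalene epoxide into lanosterol, had a similar set of levels, at 23.2, 5.26, 12.7 and 19.2 CPM in DSS 1 to 4. In DSS+CA it was at 25.6, 20.9, 14.4 and 27.6 CPM. Again DSS 2 and DSS 3 were the lowest of the 8, and the log2 fold change was 0.55 (interval from -0.38 to 1.48), falling to 0.19 without the 3 libraries. Cyp51, the lanosterol demethylase, was at 72.3, 60.0, 52.0 and 63.6 CPM in DSS 1 to 4 and at 80.2, 68.7, 117 and 70.9 CPM in DSS+CA 1 to 4. Only DSS 1 reached into the DSS+CA range, and the log2 fold change was 0.44 (interval from -0.17 to 1.06), or 0.08 without the 3 libraries.

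The C4 demethylation genes Msmo1 and Nsdhl had log2 fold changes of 0.39 and 0.32. Msmo1 stood at 50.1 ± 12.8 and 65.6 ± 16.5 CPM in DSS and DSS+CA, and Nsdhl at 22.5 ± 3.18 and 28.2 ± 3.78 CPM. Ebp, the sterol isomerase, stood at 46.9 ± 13.3 and 59.6 ± 12.1 CPM (log2 fold change 0.35). For each of these the groups overlapped and the SD ranges met.

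Fdft1, which joins farnesyl units into squalene, and Dhcr7, which makes cholesterol from 7-dehydrocholesterol, had log2 fold changes of 0.13 and 0.07. Fdft1 varied little, from 23.1 to 34.1 CPM in DSS and from 27.5 to 35.9 CPM in DSS+CA. Dhcr7 ranged from 17.6 to 36.8 CPM in DSS and from 20.4 to 38.4 CPM in DSS+CA, with DSS 2 and DSS+CA 3 as the lowest libraries of their groups. The members below 0 were Tm7sf2, a sterol C14 reductase, at -0.35 and Sc5d, the lathosterol desaturase, at -0.22. Sc5d spanned 52.4 to 98.6 CPM in DSS but only 67.6 to 72.3 CPM in DSS+CA, inside the DSS range.

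Summed over the 18 synthesis enzymes, levels were 818, 746, 587 and 746 CPM in DSS 1 to 4 and 763, 718, 1049 and 809 CPM in DSS+CA 1 to 4. The groups overlapped, and DSS+CA 3 was the highest. Summed as FPKM, levels were 238, 137, 116 and 180 in DSS and 231, 191, 180 and 214 in DSS+CA, so that the groups overlapped again but DSS+CA 3 was the lowest of its group and DSS 1 the highest of all. Of the 18 log2 fold changes, 13 were above 0, and all 18 intervals included 0. For 7 of them (Hmgcs1, Fdps, Fdft1, Sqle, Nsdhl, Sc5d and Dhcr7) the interval lay within a 2-fold difference in either direction. For the other 11 a 2-fold difference was not excluded, since the interval reached -1.10 at its lowest and 1.78 at its highest.

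The genes of SREBP2 control gave no difference past the threshold either. Srebf2, which encodes SREBP2 and is itself a target of it, was at 120, 36.2, 71.6 and 85.1 CPM in DSS 1 to 4 and at 126, 89.5, 45.4 and 100 CPM in DSS+CA 1 to 4. DSS 2 and DSS+CA 3 were the low libraries of their groups, and the log2 fold change was 0.20 (interval from -0.69 to 1.10). Scap, its escort, had the same low libraries, at 16.4 CPM in DSS 2 and 19.2 CPM in DSS+CA 3, against 32.9 to 42.3 and 34.9 to 49.1 CPM in the others of each group.

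Insig1 and Insig2 encode the proteins that retain Scap, and Insig1 is itself induced by SREBP2. Insig1 was at 48.0, 26.2, 29.5 and 34.3 CPM in DSS 1 to 4 and at 47.0, 38.9, 46.6 and 46.0 CPM in DSS+CA 1 to 4. DSS 2, DSS 3 and DSS 4 were below every DSS+CA library and DSS 1 was above every one, and the log2 fold change was 0.37 (SE 0.275, edgeR adjusted p = 0.898). Insig2 had the opposite sign, at 30.9, 82.5, 31.3 and 41.2 CPM in DSS and 23.9, 25.7, 50.1 and 23.2 CPM in DSS+CA. All DSS libraries were above DSS+CA 1, 2 and 4, whereas DSS+CA 3 was second of the 8. Its log2 fold change was -0.60 (SE 0.4, adjusted p = 0.869), and -0.94 without DSS+CA 3 (adjusted p = 0.314). Mylip, the ubiquitin ligase that sends lipoprotein receptors for degradation and is a target of the oxysterol receptors, was low, at 4.92 ± 1.51 and 3.83 ± 1.83 CPM (log2 fold change -0.37).

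All 4 genes of uptake, transport and storage had log2 fold changes below 0, with a median of -0.72. Npc1l1 encodes the brush border importer of cholesterol and plant sterols and lies on chromosome 11 from 6211013 to 6230143 (GRCm38). It was at 906, 299, 314 and 675 CPM in DSS 1 to 4 and at 262, 194, 114 and 212 CPM in DSS+CA 1 to 4. On this scale the groups did not overlap, although DSS 2 and DSS 3 lay close above DSS+CA 1. In the deposited FPKM, which carry no TMM correction, Npc1l1 was at 246, 48.9, 58.0 and 151 in DSS and at 75.3, 49.9, 18.8 and 54.6 in DSS+CA, so the groups overlapped: DSS 2 lay below DSS+CA 1, 2 and 4, and DSS 3 below DSS+CA 1. In TMM-scaled CPM it was the only one of the 27 genes with groups apart and lower in DSS+CA (3.70%, against 2.81% of all genes), and none was apart and higher (against 3.24%).

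The log2 fold change of Npc1l1 was -1.49 (SE 0.434, 95% interval from -2.44 to -0.54), with an unadjusted p of 0.00536 and an adjusted p of 0.25 in edgeR's quasi-likelihood test. With DESeq2 it was -1.52 with an adjusted p of 0.0200. Without DSS 2, DSS 3 and DSS+CA 3 it was -1.86 with an edgeR adjusted p of 0.0121. That fit kept 2 DSS libraries and called 6.61% of all genes. For Npc1l1 it left out the lowest DSS libraries, which raises the DSS mean, and the lowest DSS+CA library. Leaving out single libraries kept the log2 fold change of Npc1l1 between -1.69 and -1.14, and over all alternatives the adjusted p ranged from 0.0121 to 0.708.

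Markers of other cells were read from the same fit. The 5 goblet cell markers summed to between 7672 and 11036 CPM in DSS and between 3158 and 6595 CPM in DSS+CA, with 5 of 5 below 0 and none past the threshold (lowest edgeR adjusted p = 0.184). The 7 T and NK cell markers summed to between 520 and 1938 CPM in DSS and between 101 and 1083 CPM in DSS+CA, with 7 of 7 below 0 and none at 0 counts, and Itgae, which marks T cells within the epithelium, passed the test (log2 fold change -1.90, edgeR adjusted p = 0.038). Of 5 Paneth cell markers, 5 were below 0 and none passed (lowest edgeR adjusted p = 0.259), with sums from 4840 to 31658 CPM in DSS and from 3686 to 15408 CPM in DSS+CA. Of the 7 tested markers of crypt stem and dividing cells, 3 were above 0 and 4 below, from -0.88 (Olfm4) to 0.94 (Rrm2). Lgr5, which was not tested, was at 11.5, 5.72, 3.58 and 8.91 CPM in DSS 1 to 4. In DSS+CA 1 to 4 it was at 3.91, 1.90, 1.23 and 3.22 CPM, lower in mean but with overlapping groups. Of the 7 enterocyte markers, 2 were above 0 and 5 below, with a median log2 fold change of -0.05. The brush border phosphatase gene Alpi was the highest of them at 0.67, from 726 ± 216 CPM in DSS to 1155 ± 485 CPM in DSS+CA (SD, n = 4), and Fabp1 was at 0.12. The lactase gene Lct was the lowest of them and was at 1268, 538, 636 and 1016 CPM in DSS 1 to 4 and at 774, 601, 119 and 490 CPM in DSS+CA 1 to 4. Lct and Npc1l1 were both highest in DSS 1 and DSS 4 and lowest in DSS+CA 3, and the log2 fold change of Lct was -0.80 (edgeR adjusted p = 0.854). That order was not particular to Lct. The goblet cell markers Muc2 and Fcgbp, the T cell marker Itgae and the crypt markers Lgr5 and Ascl2 had the same highest and lowest libraries. So did the sterol genes Npc1 and Abcg8. None of the other enterocyte markers did, and Apoa4, Fabp1 and Fabp2 were lowest in DSS 1. Mitochondrially encoded transcripts took 16.2%, 27.7%, 17.8% and 19.8% of counts in DSS 1 to 4 and 9.72%, 14.1%, 20.5% and 13.2% in DSS+CA 1 to 4, so that each DSS library was above DSS+CA 1, 2 and 4. The part of cell makeup or of the mitochondrial share in the Npc1l1 difference was not tested, and in such bulk libraries fewer cells of a type and less RNA per cell cannot be told apart.

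**Figure D3:**
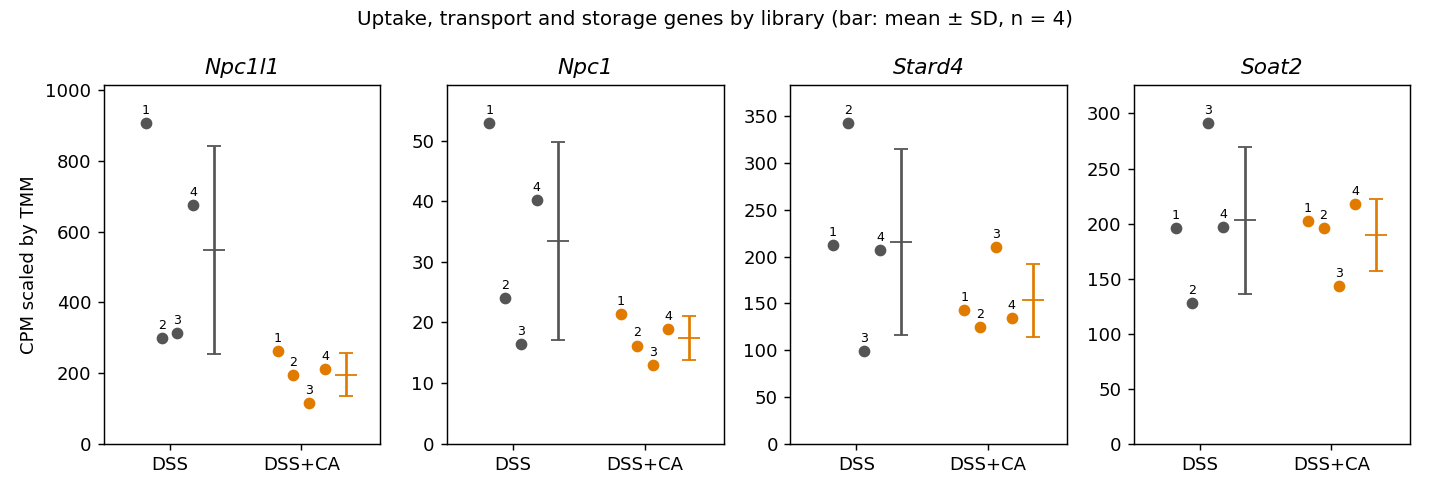
CPM scaled by TMM of the 4 uptake, transport and storage genes in each library (numbers give the replicate), with the mean and SD of each group (n = 4) beside the points. All DSS+CA libraries lie below all DSS libraries for Npc1l1 on this scale, whereas the groups overlap for Npc1, Stard4 and Soat2.

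Npc1 encodes the lysosomal protein that releases cholesterol taken up by endocytosis. It was at 52.9, 24.1, 16.5 and 40.2 CPM in DSS 1 to 4 and at 21.4, 16.2, 13.0 and 18.9 CPM in DSS+CA 1 to 4. DSS 3 lay within the DSS+CA range and the other DSS libraries above it. The log2 fold change was -0.94 (1.92-fold lower, SE 0.376, unadjusted p = 0.0287, edgeR adjusted p = 0.517), and -1.34 with an adjusted p of 0.0220 without DSS 2, DSS 3 and DSS+CA 3. For Npc1, too, that fit left out the lowest DSS libraries, which raises the DSS mean, and the lowest DSS+CA library. It called 6.61% of all genes.

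Stard4 encodes a carrier of cholesterol between membranes and is a target of SREBP2. Its levels were 213, 343, 99.3 and 207 CPM in DSS 1 to 4 and 143, 124, 211 and 135 CPM in DSS+CA 1 to 4. The ranges overlapped widely, since DSS 3 was the lowest and DSS 2 the highest of the 8, and the log2 fold change was -0.49 (interval from -1.32 to 0.34). Soat2, the acyltransferase that makes cholesteryl esters in enterocytes, was at 203 ± 67.1 and 190 ± 32.5 CPM in DSS and DSS+CA. Its log2 fold change was -0.10 (interval from -0.79 to 0.59), and its sign turned positive without DSS 3 (0.13) and without DSS+CA 3 (0.017).

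Among the 27 genes, differences between libraries of one group were often larger than those between the groups. In DSS+CA 3, 7 genes were over 1.5 times the mean of the other 3 DSS+CA libraries (Hmgcs1, Idi1, Fdps, Ggps1, Cyp51, Insig2 and Stard4) and 8 were below it by that factor (Pmvk, Mvd, Lss, Ebp, Dhcr7, Srebf2, Scap and Npc1l1). Idi1 and Ggps1 were 3.25 and 3.26 times that mean, and Srebf2, Scap and Mvd were 0.43, 0.44 and 0.47 times it. In DSS 2, 4 genes were high in the same sense (Idi1, Ggps1, Insig2 and Stard4) and 14 were low, among them Lss and Hsd17b7 at 0.29 times the mean of the other DSS libraries.

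These departures varied with the base composition of the transcripts. The GC content of the longest GENCODE transcript of each gene ran from 40.1% (Ggps1) to 59.1% (Scap). Across the 27 genes, the log2 ratio of DSS+CA 3 to the other DSS+CA libraries had a Pearson correlation of -0.76 with GC content, and that of DSS 2 to the other DSS libraries had -0.66. For DSS 3 the sign was opposite, at 0.72, with Mvk, Soat2, Fdps and Mvd high and Hmgcs1 and Stard4 among the 9 low. Over all 9885 tested genes with a GC value, the Spearman correlations were -0.55, -0.68 and 0.50 for DSS+CA 3, DSS 2 and DSS 3. The log2 fold change between the groups had a correlation of -0.10 with GC content across the 27. Genes of one library share its depth and preparation, so these correlations describe those libraries.

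**Figure D4:**
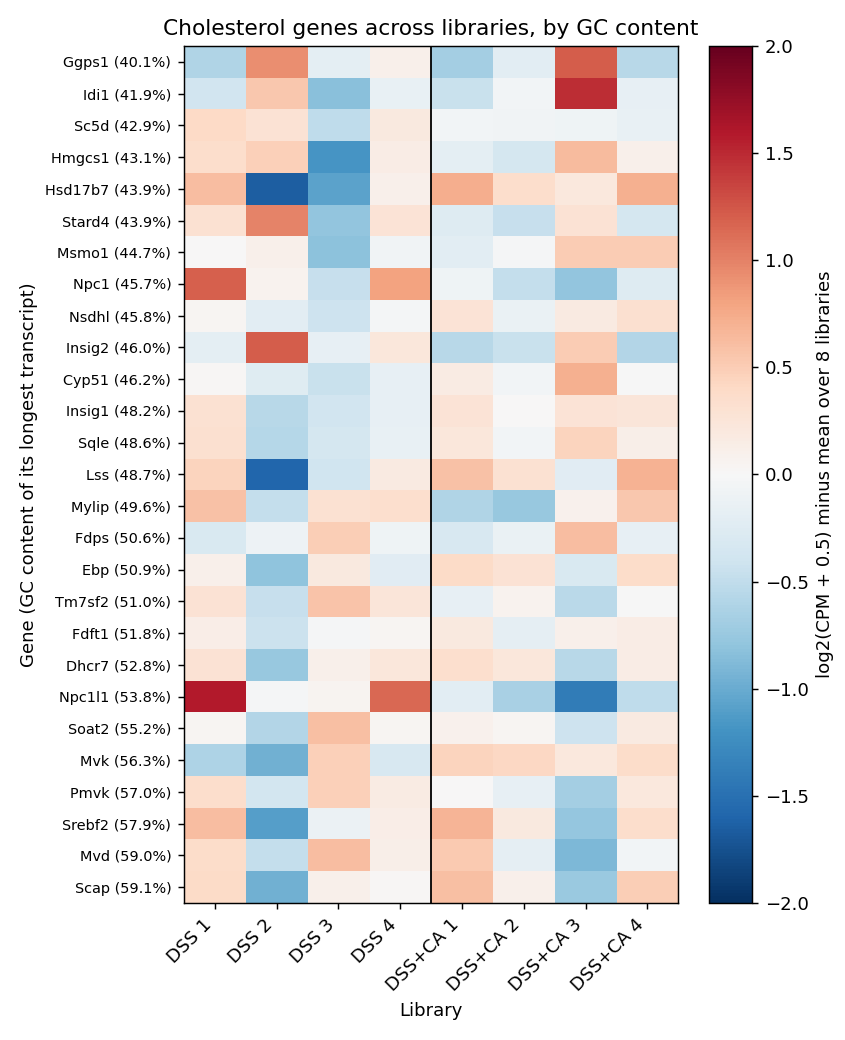
Level of each gene in each library, as log2(CPM + 0.5) minus the gene's mean over the 8 libraries (colour), with genes ordered from low to high GC content of the longest transcript (in brackets). In DSS 2 and DSS+CA 3 the low-GC genes at the top are mostly high and the high-GC genes at the bottom low, although Hsd17b7 is low in DSS 2.

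An offset for GC content per library, added after these values were seen, left the group differences of the 27 genes near their size. Npc1l1 was at -1.54 (edgeR adjusted p = 0.0919) and Npc1 at -0.98 (adjusted p = 0.303). Mvk was at 0.72 (adjusted p = 0.225), and 0 of the 27 passed, against 1.08% of all genes in that fit.

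**Figure D5:**
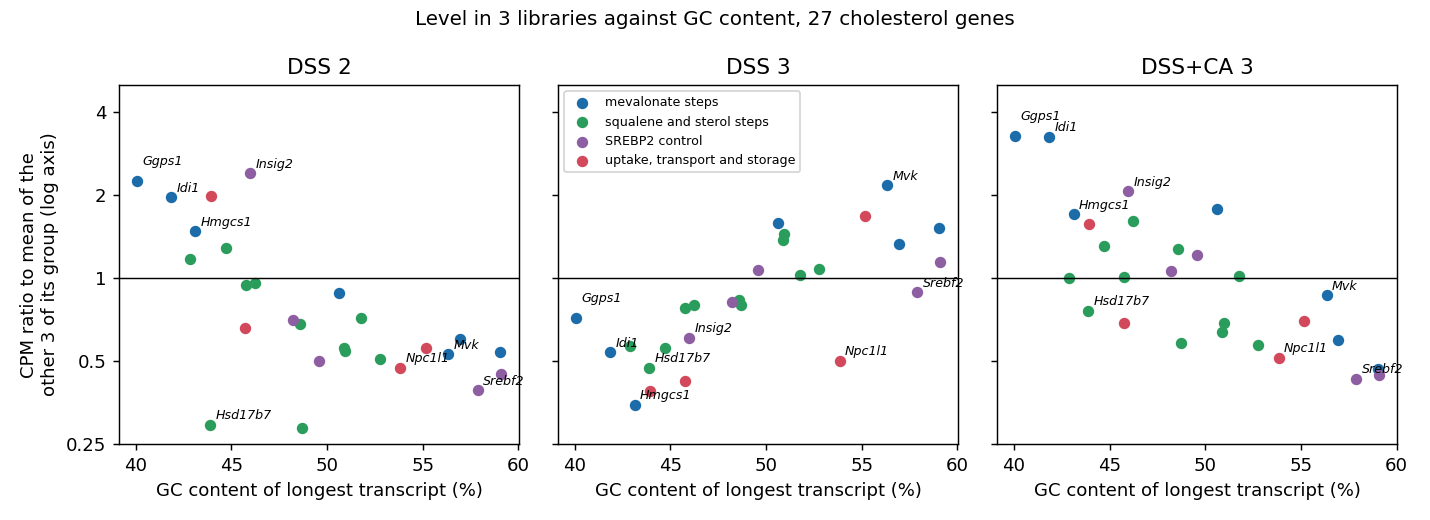
Ratio of each gene's CPM in DSS 2, DSS 3 and DSS+CA 3 to the mean of the other 3 libraries of its group (log axis) against the GC content of its longest transcript, coloured by role. The ratio goes down with GC content in DSS 2 and DSS+CA 3 and up in DSS 3.

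A further list of 39 genes around the pathway was read from the same fit, and 34 of them passed the filter. With edgeR, 0 of the 34 passed over all genes, 3 were higher and 1 lower at an unadjusted p below 0.05 (against 2.97% and 4.85% of all genes), and DESeq2 called 1 of those named here, Gramd1a. In sterol uptake, transfer and storage, Gramd1a, which moves cholesterol from the plasma membrane to the endoplasmic reticulum, was at 18, 11.4, 13.2 and 10.1 CPM in DSS 1 to 4 and at 3.75, 6.45, 3.68 and 4.96 CPM in DSS+CA 1 to 4. The groups did not overlap, and the log2 fold change was -1.48 (2.80-fold lower, SE 0.328, edgeR adjusted p = 0.106). DESeq2 gave an adjusted p of 0.0023, the GC offset 0.0462, and the fit without DSS 2, DSS 3 and DSS+CA 3 gave 0.0451. Stard5, a sterol carrier, went the other way, at 7.51 ± 2.59 and 15.8 ± 4.68 CPM (log2 fold change 1.08, edgeR adjusted p = 0.335). It was at 7.19, 5.57, 11.3 and 6.03 CPM in DSS 1 to 4. In DSS+CA 1 to 4 it was at 16.7, 17.5, 9.1 and 19.95 CPM. The groups overlapped only because DSS 3 was above DSS+CA 3. Without DSS 2, DSS 3 and DSS+CA 3 the edgeR adjusted p was 0.0188. For Stard5 that fit left out both overlapping libraries, the highest of DSS and the lowest of DSS+CA. It called 6.61% of all genes.

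In the isoprenoid branch, Pdss1 and Pdss2 encode the synthase that builds the side chain of coenzyme Q. Pdss2 was at 13.0, 9.84, 14.7 and 9.86 CPM in DSS 1 to 4 and at 21.2, 22.5, 18.1 and 22.4 CPM in DSS+CA 1 to 4. Its groups did not overlap, and the log2 fold change was 0.83 (SE 0.27, edgeR adjusted p = 0.335, or 0.0485 without the 3 libraries). For Pdss2 the 3 libraries left out were the highest and the lowest of DSS and the lowest of DSS+CA. Pdss1 was at 27.4 ± 2.97 and 42.5 ± 9.08 CPM (0.63, adjusted p = 0.556), also without overlap. Among the 12 genes of that list, 4 had groups apart and higher in DSS+CA, namely these 2, Nus1 and Acat2, against 3.24% of all genes. That count is in TMM-scaled CPM. In FPKM, Pdss1 alone of the 4 had groups apart, whereas for Pdss2, Nus1 and Acat2 the value of DSS 1 (1.84, 22.5 and 7.48 FPKM) was above that of DSS+CA 3 (1.54, 20.9 and 6.59 FPKM).

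The oxysterol receptor and efflux genes had log2 fold changes between -0.40 and 0.16, with 3 of 6 tested genes above 0. Nr1h2, which encodes the receptor LXR beta, was at 60.3 ± 15.8 and 45.8 ± 16.9 CPM (log2 fold change -0.40), and Abcg8, a subunit of the pump that returns sterols to the lumen, at 126 ± 36.8 and 103 ± 27.1 CPM (-0.29). Of the SREBP processing and degradation genes, 5 of 6 tested were above 0. Erlin2, a membrane scaffold in sterol-driven degradation, had a log2 fold change of 0.26, and Mbtps1, the site-1 protease that makes the first cleavage of SREBP2, one of 0.25. No gene of either list had an edgeR adjusted p below 0.934.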

How the data were processed

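RNA libraries of crypts were made with a TruSeq Stranded Total RNA kit, per the labels' protocols. The 8 deposited tables list Ensembl genes with raw counts and FPKM, per the file headers. Per the submitters' processing notes, the tools were HISAT2 and StringTie and the build GRCm38 (mm10), with no versions. The authors' deposited FPKM values equalled the count over gene length and total count, with a length that was the same within 1% across libraries for 17718 of 17718 genes counted in at least 2 libraries. Entries without a gene numbered 0. For the counting program, its gene models and its use of strand, the answer is not given in the sources used here.

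Genes with FPKM of at least 1 in at least 4 of 8 libraries were tested (9913). Counts were compared with the two-sided quasi-likelihood test of edgeR 4.0.16, run in R 4.3.3 beside limma 3.58.1. TMM scaling was used, with group as the only term and Benjamini-Hochberg adjustment at 0.05. The SE is the absolute log2 fold change over the square root of F, and 95% intervals use it with the degrees of freedom of the test. The common biological coefficient of variation was 0.416. The count procedure was tested on simulated data. No library was identical over all genes to another of its group. Alternatives were RLE scaling, DESeq2 1.42.0, no filter, edgeR's filterByExpr, each library left out, DSS 2, DSS 3 and DSS+CA 3 left out, the replicate number as a block and, added later, a GC offset (lowess with a span of 0.3 on 9885 genes). Python 3.11.15, numpy 2.4.6, pandas 2.3.3, scipy 1.17.1 and matplotlib 3.10.9 were used.

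By GENCODE release M21, 13 of the 27 genes overlap another gene and 7 a protein-coding one (Mvd, Fdps, Ggps1, Fdft1, Cyp51, Tm7sf2 and Npc1), so their counts are uncertain where reads could be shared. The members, roles and lists were chosen with earlier results of these data known. Every one of the 27 members is named. Related genes were named where past the threshold or, failing that, as the 2 of smallest p in each role. Acat2, Nus1 and the markers' values were chosen for printing after they were seen. Some genes of the lists first drawn up are not reported here and enter no count of a list. Genes of the pathway outside these lists were not analysed here.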

Additional observations from a re-analysis of the deposited data

Results flagged for a closer look

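Each group of 4 libraries was screened, for the 27 genes and the 8 related genes named by rule, for a library that stood apart from the other 3 by more than Dixon's 95% critical value allows. Of 70 groups, 7 held one. Chance gives about 1 in 20 for independent groups, but these genes share the same 8 libraries, so no conclusion is drawn from the count. All 7 were DSS+CA groups, and in 6 the library was DSS+CA 3. It was high for Idi1 (196 CPM, against 51.3 to 67.3 in the others), Fdps (69.1 against 35.9 to 41.1), Ggps1 (45.5 against 11.9 to 16.8) and Insig2 (50.1 against 23.2 to 25.7). It was low for Nr1h2 (20.7 against 52.5 to 57.1) and Erlin2 (109 against 158 to 164). Insig1 was low in DSS+CA 2, at 38.9 CPM against 46.0 to 47.0. Mitochondrially encoded transcripts took 20.5% of the counts of DSS+CA 3, against 9.72% to 14.1% in the other DSS+CA libraries and 16.2% to 27.7% in the DSS libraries. The part of this difference in these values was not tested.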

How the results depend on the processing

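Of the 27 genes, 18 kept the sign of their log2 fold change under all 15 alternatives, as did the 8 related genes named by rule. The number above 0, 16 of the 27 in the test above, lay between 12 and 17 under the alternatives. It was 12 without DSS 2, DSS 3 and DSS+CA 3. The median of the 27 was reversed only in that fit, at -0.04. The number of the 27 called moved from 0 to 1 with DESeq2 and to 3 without those 3 libraries. Over all genes, edgeR's 4 higher and 9 lower became 7 and 20 with RLE scaling, 51 and 169 with DESeq2, 18 and 61 with no filter, 234 and 421 without the 3 libraries, and 28 and 79 with the GC offset. Leaving out 1 library gave 0 to 19 higher and 4 to 65 lower, with 11 and 25 without DSS 3, 19 and 65 without DSS+CA 3, and 0 higher without DSS 1, DSS 2, DSS 4, DSS+CA 2 or DSS+CA 4. With the replicate number as a block there were 14 higher and 51 lower. Same-numbered libraries had correlations of deviations of 0.75, -0.34, 0.11 and 0.20 for numbers 1 to 4, so the numbers were not taken to pair the libraries. The cause of these changes was not tested.

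Hmgcs1 was at -0.020 with RLE scaling and with DESeq2, and at -0.43 without the 3 libraries. Fdps was at -0.013 (RLE), -0.014 (DESeq2), -0.045 (without the 3 libraries), -0.0017 (replicate block) and -0.0078 (GC offset). Ggps1 was at 0.042 with no filter and 0.025 with filterByExpr. Without the 3 libraries, Fdft1 was at -0.050, Sqle at -0.041, Dhcr7 at -0.042 and Soat2 at 0.033. With each library left out in turn, the ranges were -0.24 to 0.18 (Hmgcs1), -0.093 to 0.86 (Idi1, lowest without DSS+CA 3), -0.24 to 0.21 (Fdps), -0.66 to 0.37 (Ggps1), -0.12 to 0.23 (Dhcr7), -0.033 to 0.49 (Srebf2, lowest without DSS 2) and -0.27 to 0.13 (Soat2). Depth limits Mylip most, with 35 to 113 counts per library.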

Other observations

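The ratio of the importer Npc1l1 to the exporter subunit Abcg5, both in FPKM, does not depend on how libraries are scaled to each other. It was 2.79, 0.675, 0.821 and 1.93 in DSS 1 to 4 and 0.992, 0.572, 0.319 and 0.651 in DSS+CA 1 to 4. DSS 1 and DSS 4 were above every DSS+CA library, whereas DSS 2 and DSS 3 lay within the DSS+CA range. This pair was chosen after its values were seen. Abcg8, the other subunit of that exporter, was at 39.9, 12.3, 17.7 and 29.97 FPKM in DSS 1 to 4. In DSS+CA 1 to 4 it was at 30.03, 24.7, 9.38 and 28.7 FPKM. The ratio of Npc1l1 to Abcg8 was higher in each DSS library than in any DSS+CA library. The overlap seen with Abcg5 thus depends on the subunit chosen. Summed over the 4 uptake, transport and storage genes, levels were 1368, 794, 721 and 1119 CPM in DSS 1 to 4 and 629, 530, 481 and 583 CPM in DSS+CA 1 to 4, without overlap on this scale. Summed as FPKM they were 379, 122, 161 and 259 in DSS and 202, 157, 81.7 and 173 in DSS+CA, so that the groups overlapped. Npc1l1 held most of that sum in DSS 1 and DSS 4.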
